A study of Mus musculus with 4 samples.

Results

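The 9 interferon-stimulated genes Ifit1, Ifit2, Ifit3, Irf7, Isg15, Bst2, Oasl2, Usp18 and Ifitm3 were followed in poly(A) RNA of the mouse lateral habenula, a nucleus of the epithalamus through which the forebrain reaches the monoamine neurons of the midbrain. They were taken by symbol from the 53465 gene identifiers of the count matrix, and each of the 9 matched 1 identifier. The tissue came from C57BL/6 mice, and the comparison asks whether acute social isolation alters expression in this nucleus. There were 2 libraries from socially isolated mice and 2 from group-housed mice. The length of isolation, the age and sex of the mice and whether a library came from 1 animal or a pool were not given in the sources used here. Spread between libraries, and the p-values that rest on it, may therefore be technical.

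Type I interferons are secreted proteins that bind a surface receptor built from Ifnar1 and Ifnar2. The receptor activates the kinases Jak1 and Tyk2, and the signal ends in the nucleus at interferon-stimulated response elements in the promoters of antiviral genes. In the brain, microglia, endothelial cells, astrocytes and neurons can all express such genes, and a low tonic level is found without infection.

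The promoters of the Ifit genes and of Isg15 are shown first to let the windows with and without the core of the response element be compared. Windows from 250 bases before to 50 bases after the annotated start were taken from RefSeq (GRCm38.p6) and are written 5′ to 3′ on the strand of the gene. Ifit2 had another window, chr19:34550838-34551137, which is not printed. Capitals mark the core of the element, GAAANNGAAA, or its reverse complement TTTCNNTTTC, and overlapping matches were all counted.
Ifit2 promoter, chr19:34550444-34550743, plus strand: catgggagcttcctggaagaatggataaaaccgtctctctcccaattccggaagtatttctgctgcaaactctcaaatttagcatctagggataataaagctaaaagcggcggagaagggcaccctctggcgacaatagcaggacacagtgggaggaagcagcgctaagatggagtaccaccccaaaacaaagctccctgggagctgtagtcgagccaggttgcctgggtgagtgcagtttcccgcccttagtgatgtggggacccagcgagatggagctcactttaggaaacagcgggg
Ifit3 promoter, chr19:34583279-34583578, plus strand: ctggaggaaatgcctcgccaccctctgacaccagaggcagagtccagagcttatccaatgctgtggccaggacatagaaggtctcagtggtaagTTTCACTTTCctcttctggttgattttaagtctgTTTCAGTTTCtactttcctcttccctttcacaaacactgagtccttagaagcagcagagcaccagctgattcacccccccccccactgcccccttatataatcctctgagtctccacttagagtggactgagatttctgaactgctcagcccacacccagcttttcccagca
Ifit1 promoter, chr19:34640639-34640938, plus strand: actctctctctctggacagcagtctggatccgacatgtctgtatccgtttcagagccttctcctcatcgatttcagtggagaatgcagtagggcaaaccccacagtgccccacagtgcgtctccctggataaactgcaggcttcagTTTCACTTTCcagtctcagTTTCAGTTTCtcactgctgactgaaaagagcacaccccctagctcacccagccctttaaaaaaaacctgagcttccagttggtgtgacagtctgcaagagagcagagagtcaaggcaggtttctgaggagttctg
Isg15 promoter, chr4:156200769-156201068, minus strand: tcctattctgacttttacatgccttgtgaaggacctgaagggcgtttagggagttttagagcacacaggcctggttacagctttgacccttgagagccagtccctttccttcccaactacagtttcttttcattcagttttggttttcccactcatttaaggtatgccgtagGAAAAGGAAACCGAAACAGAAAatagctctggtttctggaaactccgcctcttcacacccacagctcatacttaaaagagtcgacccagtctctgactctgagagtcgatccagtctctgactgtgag

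A window was at hand for 8 of the 9 genes, Usp18 being the exception, and 5 of the 8 held the core. Of 32851 promoter windows of 300 bases in the same table, 3.44% held it. Ifit1 and Ifit3 each held TTTCACTTTC followed by TTTCAGTTTC. The first of these began 104 bases before the start in Ifit1 and 156 bases before it in Ifit3. Isg15 held 3 overlapping cores that began 78, 72 and 66 bases before the start. Bst2 held the overlapping cores GAAAATGAAA and GAAACTGAAA, and Ifitm3 held GAAAAGGAAA and GAAACCGAAA just after its start. The letters were not found in either listed window of Ifit2, nor in those of Irf7 and Oasl2, which says nothing of elements elsewhere.

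None of the 9 genes passed the test between isolated and group-housed libraries. The smallest adjusted p-values in edgeR's quasi-likelihood test (Benjamini-Hochberg over 17528 tested genes, threshold 0.05) were 0.780 for Ifit3 and 0.961 for Ifit2, and each of the other 7 stood at 0.9998. At an unadjusted p under 0.05, 2 of the 9 genes were lower (Ifit2 and Ifit3) and 0 were higher. Over all tested genes 0.0114% passed, all of them as higher, and 5.09% had an unadjusted p under 0.05, 2.83% as higher and 2.26% as lower. DESeq2 gave an adjusted p for 7 of the 9, without Isg15 and Usp18, and called 0 of them. In limma-voom 0 of the 9 were called. The unadjusted p was under 0.05 for 1 gene in DESeq2 and for 2 in limma-voom.

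All 9 genes had enough counts to be tested. By point estimate 8 of them were lower in the isolated libraries and 1, Ifit1, was higher, and their median log2 fold change was -0.16. Over all tested genes 48.8% were lower and 51.2% higher, with a median of 0.0033. For 2 of the 9 genes each isolated value was under each group-housed value, which held for 16.3% of all tested genes. The reverse held for 0 of the 9 and for 17.4% of all tested genes. The 9 genes share their libraries, so they are not independent of each other.

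**Figure D1:**
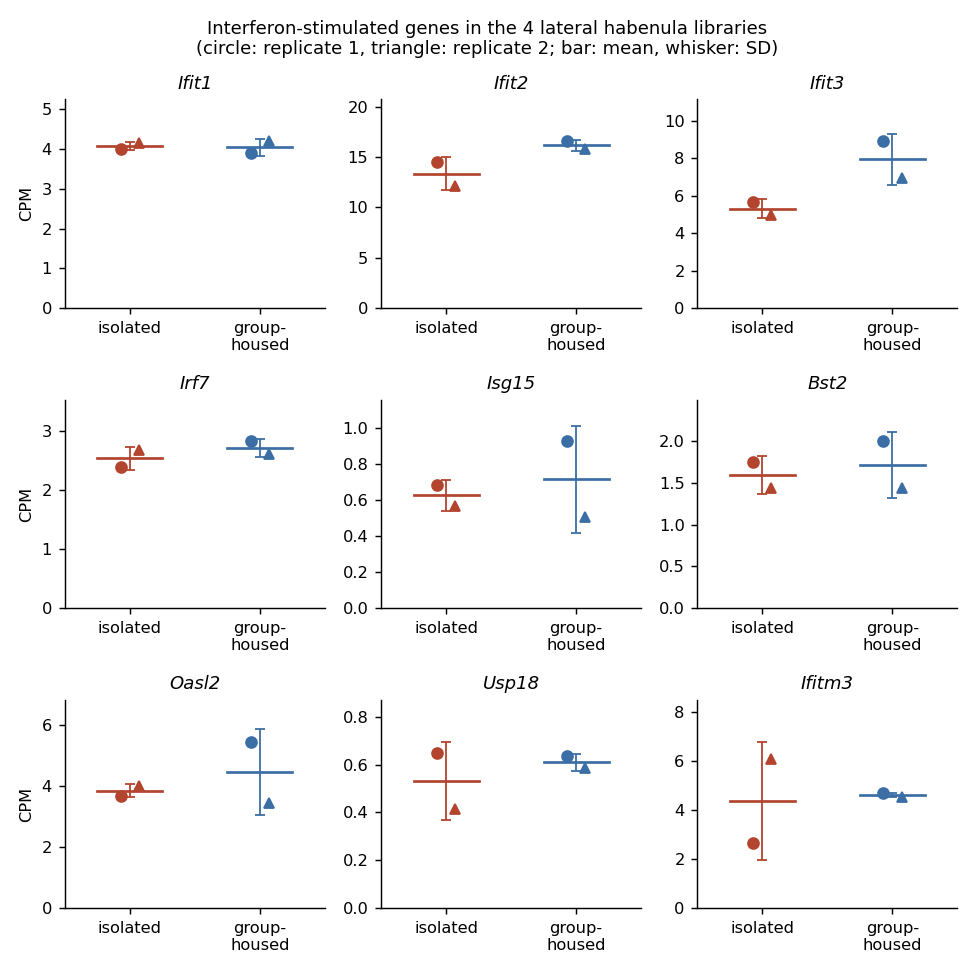
Counts scaled to a common library total (CPM) of the 9 genes in each library, isolated on the left and group-housed on the right of each panel; circles are replicate 1, triangles replicate 2, bars the mean and whiskers the SD (n = 2 per group). The groups are separate for Ifit2 and Ifit3 and overlap for the other 7 genes.

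The Ifit proteins bind viral and non-self RNA and limit its translation. Levels are given as CPM, counts scaled to a common effective library total, unless another unit is named. Ifit2 (ENSMUSG00000045932) measured 14.5 and 12.2 CPM in isolated replicates 1 and 2, against 16.6 and 15.8 CPM in group-housed replicates 1 and 2. Each isolated value was thus under each group-housed value, on 380 and 322 counts in isolated libraries and 340 and 406 in group-housed libraries. The log2 fold change was -0.28 (SE 0.12, 95% interval -0.55 to -0.01), with an edgeR adjusted p = 0.961. Without isolated replicate 2 it was -0.16, and without isolated replicate 1 it was -0.41. Of the 4 fits without 1 library, only that without isolated replicate 1 kept an unadjusted p under 0.05 for Ifit2.

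Ifit3 (ENSMUSG00000074896), whose human counterpart binds the other IFIT proteins, measured 5.68 and 4.95 CPM in isolated libraries, against 8.92 and 6.96 CPM in group-housed libraries. The groups did not overlap, and group-housed replicate 1 stood highest. The log2 fold change was -0.57 (SE 0.18, 95% interval -0.98 to -0.17), the largest of the 9 in size, and the edgeR adjusted p = 0.780 missed the threshold. Without group-housed replicate 1 the log2 fold change of Ifit3 was -0.39.

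Ifit1 (ENSMUSG00000034459), which binds RNA caps that lack 2′-O-methylation, measured 3.999 and 4.15 CPM in isolated libraries, against 3.90 and 4.202 CPM in group-housed libraries. Its groups overlapped fully, with 105 and 110 counts in isolated libraries and 80 and 108 in group-housed libraries. The log2 fold change was 0.01 (SE 0.18), and its 95% interval ran from -0.41 to 0.42.

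These 3 genes lie on the plus strand of chromosome 19 (GRCm38, GENCODE M21 coordinates), Ifit2 from 34550694 to 34576419, Ifit3 from 34583531 to 34588731 and Ifit1 from 34640871 to 34650009. Between Ifit3 and Ifit1 lie Ifit1bl1, Ifit3b and Ifit1bl2. No annotated exon of another gene overlaps Ifit1, Ifit2 or Ifit3. Reads of the copies can still be confused or left out of the counts. Of the 50-base windows of the Ifit3 transcript 51.2% also occur in Ifit3b, and 7.13% of those of Ifit1 occur in Ifit1bl1 or Ifit1bl2. For Ifit2 the share was 0%.

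Ifit3b, the near-identical neighbour of Ifit3, measured 4.68 and 4.53 CPM in isolated libraries, against 5.41 and 4.40 CPM in group-housed libraries, and its groups overlapped (log2 fold change -0.08). Summed before the fit, Ifit3 and Ifit3b held 10.4 and 9.48 CPM in isolated libraries, against 14.3 and 11.4 CPM in group-housed libraries. The summed pair gave a log2 fold change of -0.37 (SE 0.15, edgeR adjusted p = 0.913), a smaller size than that of Ifit3 alone and the same direction. Any reads left out of both counts are missing from the sum too. Ifit1bl1, an Ifit1-like gene on the opposite strand, measured 3.01 and 3.25 CPM in isolated libraries, against 2.49 and 2.18 CPM in group-housed libraries. Each isolated value of Ifit1bl1 exceeded each group-housed value, with a log2 fold change of 0.43 (SE 0.22) and an edgeR adjusted p = 0.979. The point estimates of the 6 neighbouring genes thus did not share 1 direction.

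**Figure D2:**
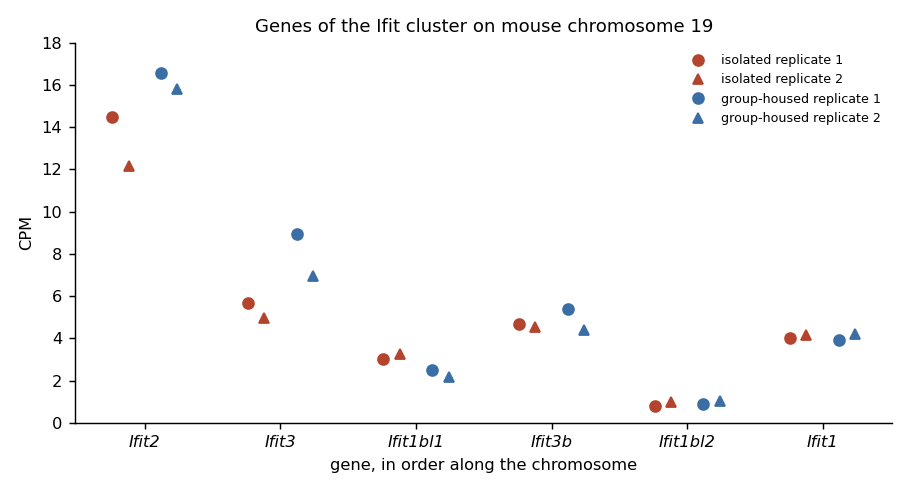
CPM of the 6 genes of the Ifit cluster in their order along chromosome 19, with isolated libraries in red left of group-housed libraries in blue, circles for replicate 1 and triangles for replicate 2. Ifit2 and Ifit3 lie lower in both isolated libraries, Ifit1bl1 lies higher in both, and Ifit3b, Ifit1bl2 and Ifit1 overlap.

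Irf7 (ENSMUSG00000025498) encodes the transcription factor that amplifies type I interferon production. Its level was 2.40 and 2.68 CPM in isolated libraries, against 2.83 and 2.61 CPM in group-housed libraries. The groups overlapped, and the log2 fold change was -0.09 (SE 0.22, 95% interval -0.59 to 0.40). Irf7 spans 141262706 to 141266481 of chromosome 7 (minus strand), where its exons overlap those of Phrf1 on the other strand. Whether reads were counted by strand was not given in the sources used here. Reads of Phrf1 may therefore be included, or reads in the overlap left out.

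Isg15 and Usp18 form a pair, a ubiquitin-like protein and the protease that removes it from its targets and also damps receptor signalling. Isg15 (ENSMUSG00000035692) had 18 and 15 counts in isolated libraries, against 19 and 13 in group-housed libraries. These were 0.686 and 0.567 CPM in isolated libraries, against 0.926 and 0.506 CPM in group-housed libraries, which held both the highest and the lowest value. Usp18 (ENSMUSG00000030107) had 17 and 11 counts in isolated libraries, against 13 and 15 in group-housed libraries, or 0.648 and 0.415 CPM against 0.634 and 0.584 CPM. Here the isolated libraries held both extremes.

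Both genes of this pair were measured with low precision. The log2 fold change of Isg15 was -0.16 with a 95% interval from -1.09 to 0.77, and that of Usp18 was -0.19 with an interval from -1.10 to 0.72. A difference of 1.5-fold either way lies within both intervals and was not detectable at this depth. Isg15 spans 156199424 to 156200818 of chromosome 4 (minus strand), and Usp18 spans 121245906 to 121270917 of chromosome 6 (plus strand). The exons of Usp18 overlap those of Gm44148 on the other strand.

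Bst2 and Ifitm3 encode membrane proteins, tetherin, which holds budding virions at the cell surface, and a protein that blocks virus fusion in endosomes. Bst2 (ENSMUSG00000046718, chromosome 8, minus strand, 71534255 to 71537456) measured 1.75 and 1.44 CPM in isolated libraries, against 1.998 and 1.44 CPM in group-housed libraries. Its groups overlapped, and the log2 fold change was -0.10 (SE 0.28, 95% interval -0.75 to 0.55).

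Ifitm3 (ENSMUSG00000025492, chromosome 7, minus strand, 141009586 to 141010770) measured 2.67 and 6.08 CPM in isolated libraries, against 4.68 and 4.55 CPM in group-housed libraries. The isolated libraries stood on either side of the group-housed ones, and they differed from each other by a factor of 2.28, more than for any other of the 9 genes, where the factor within isolated libraries was at most 1.56. The log2 fold change was -0.08 (SE 0.33). With isolated replicate 1 left out it was 0.40, and with isolated replicate 2 left out it was -0.79. Of its 50-base windows 10.02% also occur in other genes, among them Ifitm1 and Ifitm2.

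Summed markers of blood vessels, meninges and the ventricle wall differed between the isolated libraries in the direction of Ifitm3. The 12 endothelial markers, all tested, summed to 176 and 206 CPM in isolated replicates 1 and 2, against 185 and 185 CPM in group-housed replicates. The 9 meningeal fibroblast markers, all tested, summed to 50.3 and 75.6 CPM in isolated libraries, against 59.7 and 70.1 CPM in group-housed libraries. The 9 ependymal markers summed to 84.4 and 165 CPM in isolated libraries, against 81.0 and 77.0 CPM in group-housed libraries. No marker of these 3 lists was at 0 in all libraries. Within them Cldn5, Flt1, Emcn and Igf2 were lower in isolated replicate 2 than in isolated replicate 1. The direction was not particular to these lists. Red blood cell markers summed to 26.7 and 41.4 CPM in isolated replicates 1 and 2, and pericyte and smooth muscle markers to 175 and 199 CPM. Oligodendrocyte, border macrophage and choroid plexus sums also rose, while lateral habenula, thalamus and microglia sums fell. The choroid plexus sums were 76.8 and 87.3 CPM in isolated libraries, against 54.7 and 161 CPM in group-housed libraries. The part of any of these cell types in the Ifitm3 values was not tested. In bulk tissue, fewer cells of a type and less RNA per cell cannot be told apart.

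Oasl2 (ENSMUSG00000029561) encodes an oligoadenylate synthetase-like antiviral protein with ubiquitin-like domains. It measured 3.69 and 4.003 CPM in isolated libraries, against 5.46 and 3.46 CPM in group-housed libraries. Only group-housed replicate 1 stood above the isolated libraries. The log2 fold change was -0.20 (SE 0.24, 95% interval -0.75 to 0.35), and it was 0.15 without group-housed replicate 1. Oasl2 spans 114896936 to 114912234 of chromosome 5 (plus strand).

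**Figure D3:**
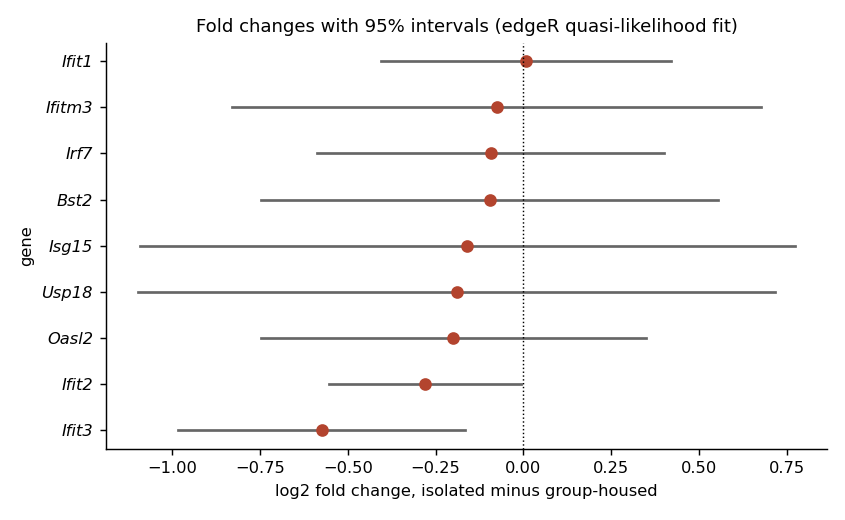
Log2 fold change of the 9 genes, isolated minus group-housed, with 95% intervals from the edgeR quasi-likelihood fit (n = 2 per group), ordered from the highest to the lowest estimate. The interval of Ifit2 ends at -0.01 and that of Ifit3 at -0.17, and the other 7 include 0; no adjusted p passed 0.05.

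To compare levels between genes, counts were divided by the length of all annotated exons and scaled to a common total per library, the unit TPM. Over the 4 libraries Ifitm3 had the highest mean level at 28.1 TPM (range 16.8 to 38.7). Ifit3 followed at 16.0 TPM (12.2 to 21.0) and Ifit2 at 15.9 TPM (13.4 to 17.3). The ranges of these 3 overlapped, but Ifitm3 stood above the other 2 within each of the 4 libraries. The margin was least in isolated replicate 1, with 16.8 TPM for Ifitm3, 15.7 for Ifit2 and 13.9 for Ifit3. The order of Ifit3 and Ifit2 changed between libraries and is not settled.

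Bst2 stood at 7.75 TPM (6.77 to 9.09) and Ifit1 at 6.48 TPM (6.03 to 6.74), next to each other with ranges that almost touch. Isg15 at 3.74 TPM (2.84 to 5.03), Irf7 at 2.95 TPM (2.71 to 3.07) and Oasl2 at 2.75 TPM (2.31 to 3.52) overlapped in part. The exon length used was 3776 bases for Irf7 and 6374 for Oasl2. Their longest protein-coding transcripts had 2237 and 3123 bases. A transcript length would give both genes higher TPM, so their order beside Isg15 depends on the annotation. Usp18 was lowest at 0.864 TPM (0.642 to 0.991), below every value of the other 8 genes. The 9 genes together summed to 36.0 and 36.4 CPM in isolated libraries (945 and 965 counts), against 45.9 and 40.1 CPM in group-housed libraries (942 and 1031 counts).

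Relative to each gene's own mean over the 4 libraries, the 9 genes had a median log2 level of -0.02 in isolated replicate 1 and -0.18 in isolated replicate 2, against 0.18 in group-housed replicate 1 and 0.05 in group-housed replicate 2. In isolated libraries 3 and 3 of the 9 genes lay above their own mean, against 8 and 5 in group-housed replicates 1 and 2. The median was thus highest in group-housed replicate 1, where Ifit1 alone lay below its own mean. Without group-housed replicate 1 the median log2 fold change of the 9 genes was -0.04, with 6 lower and 3 higher. Without group-housed replicate 2 it was -0.32.

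**Figure D4:**
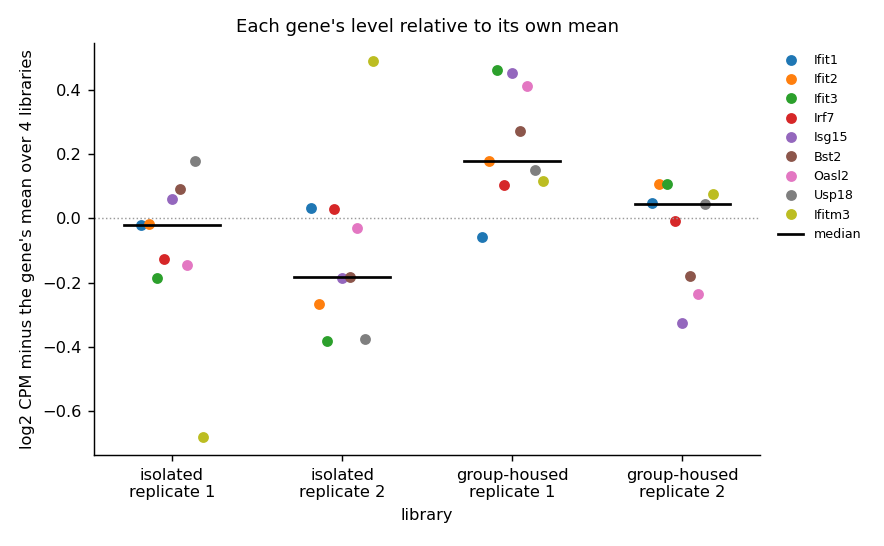
Log2 CPM (prior count 2) of each of the 9 genes minus its mean over the 4 libraries, by library, with the median of the 9 as a black bar. Most points of group-housed replicate 1 lie above 0, and Ifitm3 lies lowest in isolated replicate 1 and highest in isolated replicate 2.

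Markers of microglia, the resident macrophages of the brain, had a like order of libraries. All 14 listed markers were tested and had a lower point estimate in the isolated libraries. Their median log2 fold change was -0.16, and for 9 of them each isolated value was under each group-housed value, beside 48.8% and 16.3% of all tested genes for these 2 counts. Their summed level was 439 and 428 CPM in isolated libraries, against 507 and 453 CPM in group-housed libraries, and none was at 0. None passed the edgeR test (smallest adjusted p = 0.849). Lower estimates were not particular to microglia. All 9 oligodendrocyte markers were lower by estimate, 8 of them with groups that did not overlap, and they summed to 10488 and 12308 CPM in isolated libraries, against 13815 and 12808 CPM in group-housed libraries. Of 9 astrocyte markers 7 were lower by estimate, 5 of the 9 with each isolated value under each group-housed value, and they summed to 4438 and 4444 CPM in isolated libraries, against 4951 and 4584 CPM in group-housed libraries. The 5 tested of 6 border macrophage markers were also lower by estimate, and the 6 summed to 11.9 and 13.6 CPM in isolated libraries, against 13.2 and 18.01 CPM in group-housed libraries. None of these markers was at 0 in all libraries or passed the edgeR test. The part of any of these cell types in the values of the interferon-stimulated genes was not tested. Of 15 leukocyte markers 13 had too few counts to be tested, and Nkg7, of cytotoxic lymphocytes, had 0 counts in all 4 libraries.

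Among 17519 other tested genes, those whose profile lay closest to the median profile of the 9 were Mkx, Elmo1, Folh1, Rapgef5 and Fgf9. Their root mean square distance over the 4 libraries was 0.0102 to 0.0153 on the log2 scale. With so few libraries such likeness is common, since 2324 genes lay within 0.1.

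The interferon pathway around these genes was described from 5 lists. No read was counted for a listed interferon: 20 of 20 listed ligand genes (Ifnb1, Ifng, Ifna genes and others) had 0 counts in all libraries. Interferon genes outside the list were not looked up. A limit of 3 counts corresponds to 0.113 to 0.146 CPM per library, for counting error only, and reads of the near-identical Ifna copies could have been lost in counting. Of the 127 listed pathway genes 95 were tested, 43 higher and 52 lower by point estimate, with a median log2 fold change of -0.02. None passed edgeR's quasi-likelihood test, DESeq2 or limma-voom. At an unadjusted p under 0.05 in edgeR 1 was higher and 3 were lower, beside 2.83% and 2.26% of all tested genes.

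All 6 receptor genes were measured and had estimates slightly below 0, beside 48.8% of all tested genes. Their median log2 fold change was -0.07 and their range -0.13 to -0.01. Ifnar1, the signalling chain of the type I receptor, measured 44.6 and 47.3 CPM in isolated libraries, against 47.1 and 46.8 CPM in group-housed libraries. Ifnar2, the ligand-binding chain, measured 9.37 and 9.59 CPM in isolated libraries, against 10.9 and 9.65 CPM in group-housed libraries. Of the 6, Ifnar2 alone had each isolated value under each group-housed value, which held for 16.3% of all tested genes. The exons of Ifnar2 overlap those of Gm21970. The type II receptor chains Ifngr1 and Ifngr2 had log2 fold changes of -0.03 and -0.10.

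Of 15 genes of JAK-STAT and IRF signalling, 10 had estimates above 0 and 5 below, and the median log2 fold change was 0.06. Irf1, a transcription factor induced by both interferon types, measured 5.94 and 7.18 CPM in isolated libraries, against 5.07 and 4.75 CPM in group-housed libraries. Both isolated libraries lay higher for Irf1 (log2 fold change 0.42, SE 0.17, edgeR adjusted p = 0.933). Irf5, which drives inflammatory cytokines in myeloid cells, measured 2.63 and 3.97 CPM in isolated libraries, against 4.78 and 4.47 CPM in group-housed libraries (log2 fold change -0.49, SE 0.23, edgeR adjusted p = 0.979). Exons of Irf1 overlap Gm17334 and those of Irf5 overlap Tnpo3, both on the other strand. The kinase genes Jak1 and Jak2 had log2 fold changes of -0.02 and -0.02, and Stat3 had 0.09.

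Of 15 tested genes of nucleic acid sensing, 6 had estimates above 0 and 9 below, with a median log2 fold change of -0.06. Tlr7, an endosomal receptor for single-stranded RNA, measured 2.86 and 3.02 CPM in isolated libraries, against 3.802 and 4.47 CPM in group-housed libraries (log2 fold change -0.50, SE 0.20, edgeR adjusted p = 0.930). The adaptor gene Ticam1 had a log2 fold change of -0.20, Mavs of -0.01, the kinase gene Tbk1 of 0.03 and Traf3 of 0.13.

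Of 70 other interferon-stimulated genes 59 were tested, 27 with estimates above 0 and 32 below, and the median log2 fold change was -0.02. For 9 of the 59 each isolated value exceeded each group-housed value, and for 8 it was the reverse, beside 17.4% and 16.3% of all tested genes. Trim30a, an interferon-induced TRIM protein that damps innate signalling, measured 2.17 and 1.70 CPM in isolated libraries, against 3.27 and 2.80 CPM in group-housed libraries (log2 fold change -0.64, SE 0.24, edgeR adjusted p = 0.884). Ifi27 measured 11.9 and 13.5 CPM in isolated libraries, against 15.9 and 15.02 CPM in group-housed libraries (log2 fold change -0.28, SE 0.11, edgeR adjusted p = 0.933).

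The 3 most abundant genes of that list had small log2 fold changes. B2m, the light chain of MHC class I, had a log2 fold change of -0.14 and H2-D1, a class I heavy chain, of 0.09. Adar, the RNA-editing deaminase, measured 241 and 217 CPM in isolated libraries, against 222 and 222 CPM in group-housed libraries (log2 fold change 0.04), and its exons overlap those of Chrnb2 on the other strand.

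**Figure D5:**
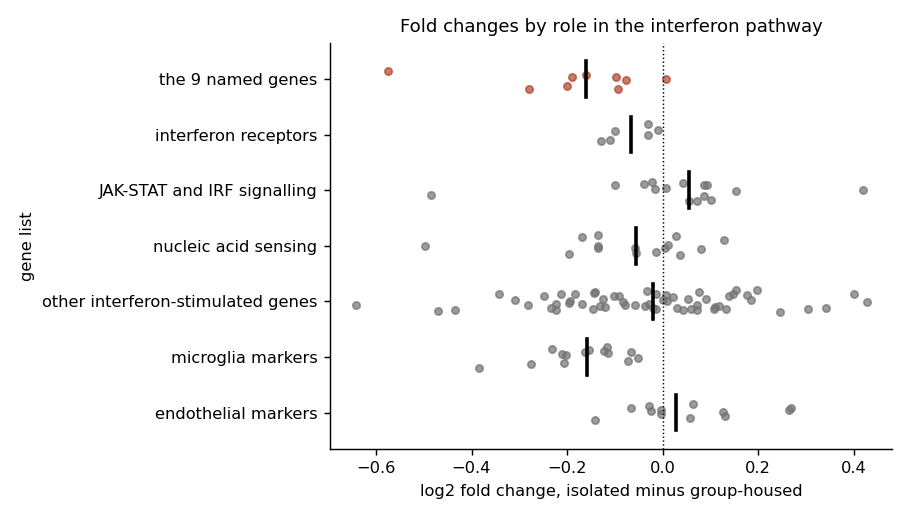
Log2 fold change, isolated minus group-housed, of each tested gene of the 9 named genes, 4 lists of the interferon pathway and 2 marker lists, with the list median as a black bar. The medians are -0.16 for the 9 genes, between -0.07 and 0.06 for the pathway lists, -0.16 for microglia markers and 0.03 for endothelial markers.

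The libraries held 20897605 to 26428152 counts, with 24301 to 25616 genes detected in each. The 8 lateral habenula markers, among them Gpr151, summed to 2003 and 1767 CPM in isolated libraries, against 1930 and 1845 CPM in group-housed libraries, with 4 estimates higher and 4 lower. Markers of the neighbouring medial habenula summed to 1557 and 1564 CPM in isolated libraries, against 1217 and 1108 CPM in group-housed libraries. All 8 were higher by estimate with each isolated value above each group-housed value, beside 51.2% and 17.4% of all tested genes. Chrnb3 and Slc5a7 of this list were the 2 genes of all tested that passed the edgeR test (adjusted p = 0.0227 each). The marker lists were chosen with earlier results of these data known. Thalamus markers summed to 294 and 235 CPM in isolated libraries, against 348 and 427 CPM in group-housed libraries. All 5 were lower by estimate, 4 of them with each isolated value under each group-housed value, beside 48.8% and 16.3% of all tested genes. For these markers too, the number of cells of a type and the RNA per cell cannot be told apart. The part of either in the values of the 9 genes was not tested.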

How the data were processed

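Poly(A) RNA of lateral habenula tissue from 2 libraries of socially isolated and 2 of group-housed C57BL/6 mice was measured. Per the labels' protocols, Trizol was used for extraction and a stranded Illumina TruSeq mRNA kit for the libraries. Build GRCm38 and the tools TopHat2 2.1.1, HTSeq, CASAVA and edgeR appear, without their roles, in the submitters' processing notes. The authors deposited raw read counts per Ensembl gene, which every test used. A rescaled copy per library was not used here.

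Symbols, coordinates and exon lengths came from GENCODE M21 (GRCm38), which matched 53274 of 53465 identifiers. Of these identifiers 24231 had 0 counts, and 17528 passed filterByExpr. The groups were compared in edgeR 4.0.16 under R 4.3.3 (TMM, glmQLFit, glmQLFTest, 2-sided, no covariate, Benjamini-Hochberg over all tested genes). The standard error is the size of the log2 fold change over the root of F, and 95% intervals use the t distribution of the fit. CPM used effective library sizes. The script was tested on simulated data. Alternatives were RLE and upper-quartile factors, no filter, DESeq2 1.42.0, limma-voom (limma 3.58.1), a replicate block and leaving out each library. The same set of alternatives for the pathway lists, and summing Ifit3 and Ifit3b, were added after seeing the data. All 9 genes are named, and of each pathway list the 3 most abundant tested genes and the 3 with the smallest p. The members and lists were chosen with earlier results of these data known. Total counts of 20897605 to 26428152 and the spread between 2 libraries per group limit the precision. Floors of 3 counts cover counting error only.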

Additional observations from a re-analysis of the deposited data

How the results depend on the processing

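None of the 9 genes, and none of the 95 tested pathway genes, passed under any of the 10 alternatives run for them. Ifit2 and Ifit3 stayed below 0 in each, with log2 fold changes from -0.41 to -0.16 and from -0.76 to -0.39, and adjusted p-values in edgeR, DESeq2 or limma-voom from 0.246 to 0.99995 and from 0.194 to 0.99995. DESeq2 gave an adjusted p for 7 of the 9. With the replicate number as a block the median of the 9 genes was -0.17, and 0 of them passed. That fit called 64 of all genes, against 2 without the block. The numbers marked no stated pair, and the deviations of same-numbered libraries correlated at 0.14 with only 2 pairs. Over all genes 15 passed with no filter on low counts and 52 in DESeq2. Leaving out 1 library gave 1 to 221 passing genes and a median of the 9 genes from -0.32 to -0.043. The sign of a gene turned round in 8 of 89 refits, each without 1 library; the genes were not called in any of them and the cause was not tested. With 1 library left out, log2 fold changes ran from -0.043 to 0.055 for Ifit1, -0.57 to 0.31 for Isg15, -0.33 to 0.15 for Bst2, -0.51 to 0.15 for Oasl2, -0.54 to 0.094 for Usp18 and -0.79 to 0.40 for Ifitm3. Depth limits Isg15 and Usp18 most, with 11 to 19 counts per library.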
